A study of Saccharomyces cerevisiae with 15 samples.

Results

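Histone genes of the budding yeast Saccharomyces cerevisiae were followed in cells of 3 kinds: 8 genes for the core histones H3, H4, H2A and H2B, the H2A.Z variant gene HTZ1 and the linker histone gene HHO1. The members were chosen by gene name and not by a filter on their values, although earlier results of these data were known. Of the 10 genes, 9 had an annotated probe set, out of 5449 S. cerevisiae genes measured in all. The study hybridized 15 RNA samples to Affymetrix Yeast Genome 2.0 arrays, 5 biological replicates per group. The Rho0 low density group was the light Percoll fraction of a BY4741 derivative that lacks mitochondrial DNA. WT low density and WT high density were the light and the dense fractions of BY4741 itself. All cells were harvested on day 3 of shaken growth at 30 °C in YPD with 2% glucose, without further treatment. BY4741, a haploid laboratory strain (mating type a), is known to lack HIS3, LEU2, MET17 and URA3 function, and every group shares that background. How the Rho0 derivative was obtained, and whether same-numbered samples shared a culture, is not given in the sources used here, and dense Rho0 cells were not analysed here.

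A nucleosome wraps DNA around an octamer with a pair each of H2A, H2B, H3 and H4, and the linker histone binds the DNA between nucleosomes. In yeast each core histone has paralogous genes, arranged as divergent H2A-H2B and H3-H4 gene couples that share the promoter region between them. Their transcription is known to peak in S phase, when new chromatin is assembled, and, for most but not all of these couples, to be held down outside it by the HIR corepressor complex. HTZ1 is regarded as replication-independent, and its product H2A.Z is placed at promoters by the SWR1 complex. Cells that leave the cycle after glucose is used up separate into dense and light fractions, and quiescent cells are known to gather in the dense one.

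The values are log2 signals after RMA, a normalization that makes each value relative to the other transcripts on its array. A difference of 1 is a 2-fold difference in signal. The number of arrays limits the precision, and the median standard error of a difference was 0.152 log2. Group means were compared in limma with all 15 arrays, and the test was passed where the Benjamini-Hochberg adjusted p over 5449 genes lay under 0.05. A gene that passed is said to have risen, fallen or been called. All 9 measured members lay above the background level of 2.56 log2 (set on the fission yeast probe sets of the same arrays, of whose means 95% lay under it) on every array, so none was decided by a filter on low values.

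Over the whole table the 3 groups differed in many transcripts and in several control signals. For 25S ribosomal RNA, the probe set at the 5′ end averaged 7.75 ± 0.27 in Rho0 low density, 11.36 ± 0.45 in WT low density and 7.87 ± 0.13 in WT high density (mean ± SD, n = 5). The middle set averaged 13.28 ± 0.15, 14.17 ± 0.04 and 10.99 ± 0.32 in the same order. At the 3′ end the set was closer between groups, at 14.24 ± 0.02, 14.16 ± 0.02 and 13.94 ± 0.14. Poly-A spike-in RNAs averaged 9.66 ± 0.24, 10.34 ± 0.24 and 10.11 ± 0.20 in the same order. The part of these signals in the histone values was not tested, except that arrays were also scaled to the same spike-in mean, called spike-in scaling below. Standard errors of histone genes were larger with it (0.19 against 0.10 log2 for HTA1, an H2A gene), so a lost call does not show absence of change. Of 5 genes that mark a cells, 5, 5 and 4 were above background in the 3 groups, with BAR1 under it in WT high density. Their summed linear signal was 1796 to 2005 in Rho0 low density, 3732 to 4474 in WT low density and 1381 to 1597 in WT high density. Of 4 genes that mark alpha cells, 3, 3 and 4 were above background, with MF(ALPHA)1 under it in the light fractions, and the summed signal was 547 to 788, 414 to 641 and 1072 to 1834. The part of these markers in the histone results was not tested. In RNA from whole populations, more cells that express a histone gene and more RNA per cell cannot be told apart.

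Not every probe set reads a single gene. The annotation paired no probe set with HHF2 (YNL030W), an H4 gene. The set paired with HHF1 (YBR009C), the other H4 gene, bears the suffix s_at, which Affymetrix gives to sets that match more than one transcript. HHF1 is therefore treated as an H4 signal that may include HHF2. HTA2 (YBL003C), an H2A gene, had 2 probe sets: an s_at set with a mean of 12.40 over the 15 arrays, taken because it was the brighter, and one without that suffix with a mean of 8.0, called its own probe set below. HTA1 (YDR225W), HTB1 (YDR224C), HTB2 (YBL002W), HHT1 (YBR010W), HHT2 (YNL031C), HTZ1 (YOL012C) and HHO1 (YPL127C) each had 1 probe set without the suffix. Which transcripts the s_at sets match is not given in the sources used here.

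**Figure D1:**
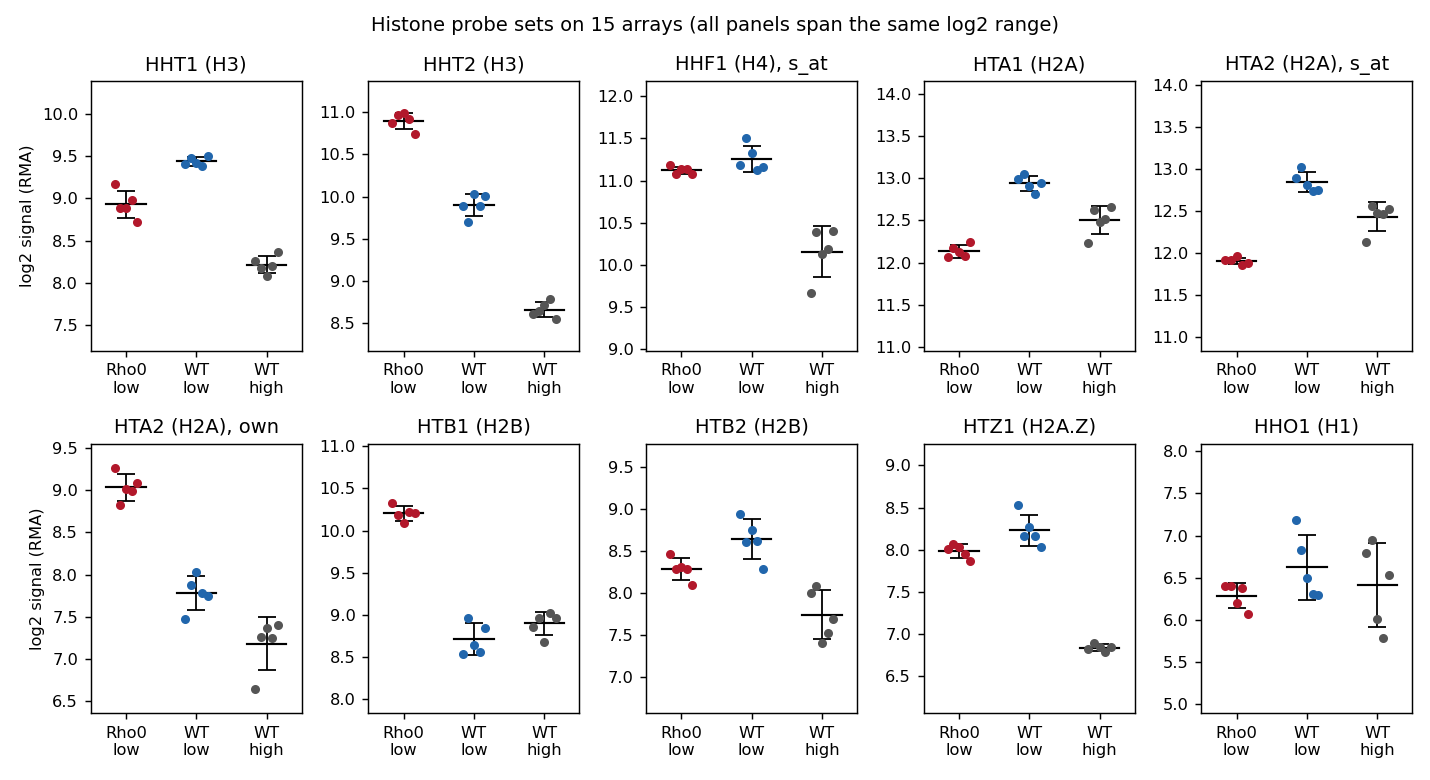
Log2 signal of the 10 histone probe sets on each array (points), with group mean and SD (bars), for Rho0 low density, WT low density and WT high density (5 arrays each). Every panel spans the same log2 range. HTB1 and the own probe set of HTA2 are highest in Rho0 low density, whereas HTA1 and the s_at set of HTA2 are lowest there (differences that did not pass after spike-in scaling), and HHO1 overlaps in all groups.

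The first comparison asked how light and dense cells of the wild-type culture differ. Relative to other transcripts, signals for H3, H4, H2A.Z and the H2B gene HTB2 were higher in light than in dense cells. Those for H2A were higher too, by less, and lost the call on both main probe sets (HTA1 and the s_at set of HTA2) after spike-in scaling. Of the 9 measured histone genes, 7 rose in WT low density and 0 fell, where 26.2% of all genes rose and 41.1% fell. Taking either direction, 67.2% of all genes were called. After spike-in scaling 5 histone genes rose and 0 fell, and with a common S. pombe median 7 rose and HTB1 fell. All genes split into 1425 higher and 2238 lower, against 1774 and 1792 after quantile normalization and 880 and 2462 after spike-in scaling. The median change of the 9 was 0.90 log2, against -0.17 for all genes. HTB1 and HHO1 did not pass.

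The H3 genes HHT1 and HHT2 encode the same kind of core histone from different chromosomal couples. HHT1 read 9.41, 9.49, 9.42, 9.38 and 9.51 in WT low density (replicates 1 to 5), against 8.25, 8.18, 8.08, 8.20 and 8.36 in WT high density. HHT2 read 9.89, 9.70, 10.03, 9.89 and 10.005 in WT low density, against 8.60, 8.64, 8.72, 8.78 and 8.55 in WT high density. Neither gene had overlapping groups, every light array lying at least as high as 9.38 and every dense array at most 8.78. HHT1 was 2.34-fold higher (1.23 ± 0.10 log2, difference ± SE; limma adjusted p = 7.46e-09) and HHT2 2.37-fold (1.24 ± 0.10; adjusted p = 4.69e-09). The H4 signal of HHF1 rose 2.15-fold, with 11.12 to 11.50 in WT low density against 9.66 to 10.41 in WT high density.

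HTZ1 had the largest change of the 9 in this comparison. It read 8.53, 8.16, 8.27, 8.16 and 8.03 in WT low density, against 6.83, 6.89, 6.84, 6.78 and 6.84 in WT high density. The dense arrays thus lay close together, and all were well under the lowest light array. The difference was 1.39 ± 0.11 log2 or 2.62-fold (adjusted p = 1.66e-09). HHO1, for the linker histone, ranged from 6.30 to 7.19 in WT low density and from 5.79 to 6.95 in WT high density. Those ranges overlapped widely, and the difference of 0.21 log2 had a 95% interval from -0.23 to 0.65 (adjusted p = 0.399).

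Among the H2A and H2B genes the changes were smaller and less even. HTA1 read 12.99, 13.05, 12.91, 12.81 and 12.94 in WT low density, against 12.24, 12.62, 12.48, 12.52 and 12.65 in WT high density. All light arrays were above all dense ones, by a 1.35-fold mean difference (0.44 ± 0.10; adjusted p = 0.00118). The s_at set of HTA2 gave 1.33-fold (0.41 ± 0.11; adjusted p = 0.00234) and its own probe set 1.52-fold (0.60 ± 0.15; adjusted p = 0.00149). HTA1 and the s_at set did not pass after spike-in scaling, at 0.21 ± 0.19 and 0.18 ± 0.20 log2 (adjusted p = 0.364 and 0.454). Both the smaller differences and the larger standard errors enter those lost calls.

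The H2B genes differed from each other here. HTB2 read 8.93, 8.61, 8.75, 8.62 and 8.28 in WT low density, against 8.002, 8.08, 7.41, 7.52 and 7.69 in WT high density. Its groups did not overlap, and it rose 1.86-fold (0.90 ± 0.15; adjusted p = 2.76e-05). HTB1 read 8.54, 8.97, 8.64, 8.56 and 8.85 in WT low density, against 8.85, 8.97, 8.68, 9.03 and 8.97 in WT high density. Light and dense arrays overlapped for HTB1, with a difference of -0.19 log2 (95% interval -0.42 to 0.05; adjusted p = 0.146), which was called with a common S. pombe median (-0.27; adjusted p = 0.0423).

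**Figure D2:**
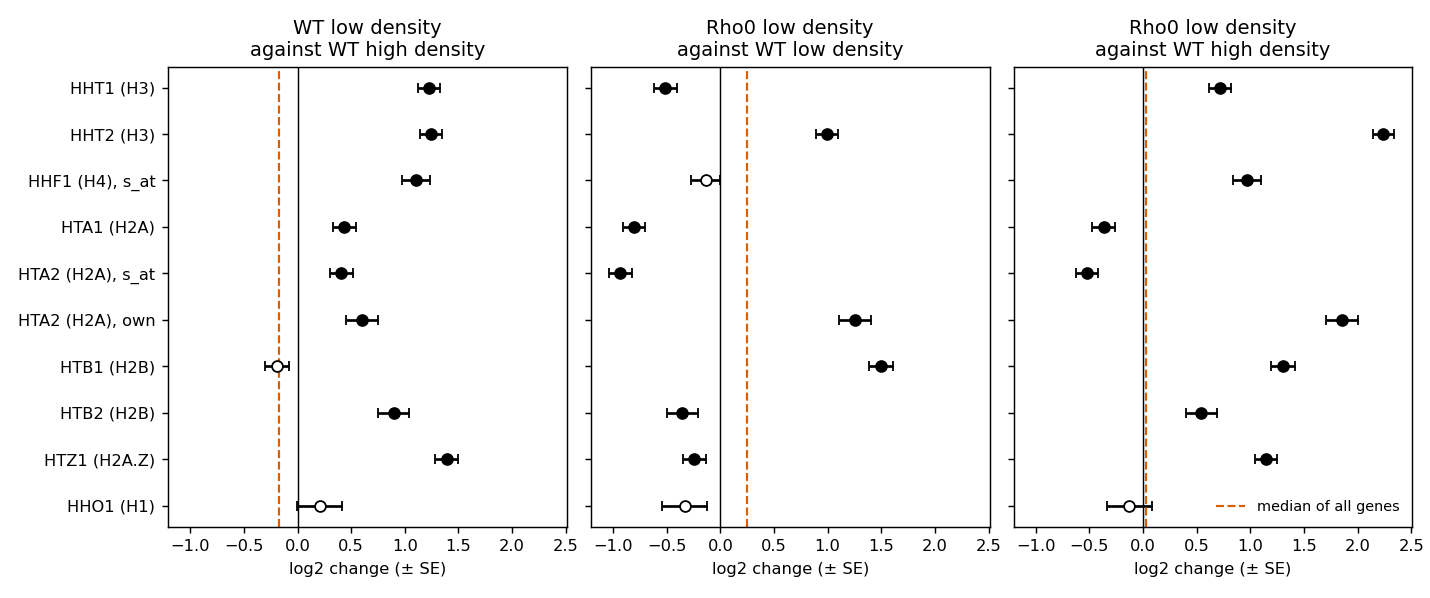
Log2 change (± SE) of each histone probe set in the 3 comparisons. Filled points passed an adjusted p of 0.05 in limma, open points did not, and the dashed line is the median change of all 5449 genes (-0.17, 0.25 and 0.03). In the middle panel HHT2, HTB1 and the own probe set of HTA2 lie near 1 or above while the others lie below 0. After spike-in scaling, 5 of those others (HHT1, HHF1, HTB2, HTZ1 and HHO1) turned above 0.

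Rho0 light cells were next set against WT light cells, which asks what the loss of mitochondrial DNA goes with in light cells. The histone genes split. HTB1 and HHT2 rose in Rho0 cells under every scaling. Under RMA alone HTA1, the s_at set of HTA2 and HHT1 fell, and HTB2 and HTZ1 fell by little, but none of these 5 was lower past the test after spike-in scaling. In counts, 2 of 9 rose and 5 fell, where 44.6% of all genes rose, 22.7% fell and 67.3% were called in either direction. The 5 include HTA1 and the s_at set of HTA2, which followed each other closely on all arrays and may not be separate H2A signals. By its own probe set HTA2 rose instead (1.25 ± 0.15 log2; limma adjusted p = 5.13e-07). The split therefore depends on which set stands for HTA2. The median change was -0.33 log2 for the 9 genes and 0.25 for all genes. Spike-in scaling shifted the median of all genes to 0.94 and turned the histone count to 3 higher (HTB1, HHT2 and HHF1) and 0 lower, and a common S. pombe median gave 2 and 3. The lower count grew to 6 after quantile normalization and to 7 with S. cerevisiae medians made equal, with 2 higher in each. All genes split into 2430 higher and 1235 lower, 1728 and 1775 with S. cerevisiae medians made equal, 1875 and 1574 after quantile normalization and 3955 and 464 after spike-in scaling.

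HTB1, an H2B gene, had the largest rise. It read 10.32, 10.19, 10.09, 10.22 and 10.21 in Rho0 low density, against 8.54, 8.97, 8.64, 8.56 and 8.85 in WT low density. No Rho0 array came within 1 log2 of a WT array, and the mean difference was 2.82-fold (1.49 ± 0.11 log2; adjusted p = 1.52e-09). HTB2, the other H2B gene, read 8.46, 8.28, 8.30, 8.28 and 8.10 in Rho0 low density, against 8.93, 8.61, 8.75, 8.62 and 8.28 in WT low density. Its groups overlapped, and it was 1.28-fold lower (-0.36 ± 0.15; adjusted p = 0.0389), but at 0.33 after spike-in scaling. The call of HTB2 was lost without any single one of 8 of the 10 arrays compared, with adjusted p from 0.0553 to 0.106. It held only without Rho0 low density replicate 1 or WT low density replicate 5.

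The H3 genes also parted. HHT2 read 10.88, 10.96, 10.99, 10.92 and 10.74 in Rho0 low density, against 9.89, 9.70, 10.03, 9.89 and 10.005 in WT low density. It rose 2.00-fold (0.997 ± 0.10; adjusted p = 8.29e-08) with no overlap. HHT1 read 9.17, 8.89, 8.89, 8.98 and 8.72 in Rho0 low density, against 9.41, 9.49, 9.42, 9.38 and 9.51 in WT low density. All its Rho0 arrays were below all WT arrays, and it fell 1.43-fold (-0.51 ± 0.10; adjusted p = 0.000267), although spike-in scaling turned it to 0.17 (adjusted p = 0.427). The H4 signal of HHF1 lay between 11.08 and 11.18 in Rho0 low density and between 11.12 and 11.50 in WT low density. Its difference of -0.14 log2 had a 95% interval from -0.42 to 0.14, so no change was detectable at this number of arrays. Rescaling gave calls in opposite directions, -0.40 with S. cerevisiae medians made equal (adjusted p = 0.0165) and 0.54 after spike-in scaling (adjusted p = 0.0238).

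For H2A the answer depended on the probe set. HTA1 read 12.06, 12.17, 12.12, 12.07 and 12.25 in Rho0 low density, against 12.99, 13.05, 12.91, 12.81 and 12.94 in WT low density, a 1.75-fold fall (-0.80 ± 0.10; adjusted p = 1.76e-06). The s_at set of HTA2 read 11.92, 11.92, 11.96, 11.86 and 11.89 in Rho0 low density, against 12.89, 13.03, 12.81, 12.73 and 12.75 in WT low density, a 1.91-fold fall (-0.93 ± 0.11; adjusted p = 3.5e-07). Both lost the call after spike-in scaling, at -0.12 ± 0.19 and -0.25 ± 0.20 log2 (adjusted p = 0.563 and 0.256). The own probe set of HTA2 read 9.27, 8.83, 9.02, 8.99 and 9.08 in Rho0 low density, against 7.48, 7.88, 8.03, 7.78 and 7.75 in WT low density. That is a 2.39-fold rise (1.25 ± 0.15; adjusted p = 5.13e-07) with no overlap, opposite in sign to the s_at set paired with the same gene.

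For HTZ1 and HHO1 this comparison depended on the scaling. HTZ1 read 8.004, 8.07, 8.04, 7.95 and 7.87 in Rho0 low density, against 8.53, 8.16, 8.27, 8.16 and 8.03 in WT low density. Its overlapping groups gave -0.24 ± 0.11 log2 (adjusted p = 0.0487), turned to 0.44 by spike-in scaling. With 1 array left out, the call held only without WT low density replicate 5, being lost without any of the 9 other arrays (adjusted p from 0.0549 to 0.147). The fit with the replicate number as a block also lost it (adjusted p = 0.0547). HHO1 lay between 6.07 and 6.40 in Rho0 low density and between 6.30 and 7.19 in WT low density, with a 95% interval of the difference from -0.77 to 0.11 log2 (adjusted p = 0.167). HHO1 was called lower with S. cerevisiae medians made equal (-0.60; adjusted p = 0.0177) and after quantile normalization (-0.55; adjusted p = 0.0247), and was at 0.35 after spike-in scaling.

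The third comparison set Rho0 low density against WT high density, which differ in both genotype and density. It shares its Rho0 arrays with the second comparison and its WT arrays with the first. Of the 9 genes, 6 rose and 2 fell, where 37.9% of all genes rose, 34.4% fell and 72.4% were called in either direction. After spike-in scaling 6 rose and 0 fell, and all genes split into 2727 higher and 1022 lower, against 2067 and 1877 without it. After quantile normalization 6 histone genes rose and 1 fell. HHT2 had the largest difference of any member in any comparison, 4.72-fold (2.24 ± 0.10 log2; adjusted p = 5.28e-13). HTB1 was 2.47-fold higher (1.31 ± 0.11), HTZ1 2.21-fold (1.15 ± 0.11), the H4 signal of HHF1 1.95-fold (0.97 ± 0.13), HHT1 1.64-fold (0.72 ± 0.10) and HTB2 1.46-fold (0.54 ± 0.15). HTA1 fell 1.29-fold (-0.37 ± 0.10; adjusted p = 0.00389), with 1 dense array (replicate 1) inside the range of the Rho0 arrays, and turned to 0.09 (adjusted p = 0.707) after spike-in scaling. The s_at set of HTA2 fell 1.44-fold (-0.52 ± 0.11), whereas the own probe set of HTA2 read 6.64, 7.26, 7.36, 7.25 and 7.40 in WT high density and rose 3.62-fold in Rho0 low density (1.86 ± 0.15; adjusted p = 1.41e-09). HHO1 was not called (95% interval -0.57 to 0.31 log2).

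Across the 3 groups the members followed several orders. HHT2 was highest in Rho0 low density, then WT low density, then WT high density, with each step past the test, and the own probe set of HTA2 had the same order. HHT1 was highest in WT low density, then Rho0 low density, then WT high density. HHF1, HTB2 and HTZ1 also had WT high density at the bottom, while their Rho0 and WT low density groups overlapped. HTA1 was highest in WT low density, then WT high density, then Rho0 low density, with 1 overlapping array between the lowest groups. HTB1 was highest in Rho0 low density, and the WT groups overlapped. HHO1 had groups that overlapped throughout. These orders hold without rescaling. After spike-in scaling HTA1 and the s_at set of HTA2 passed the test in none of the 3 comparisons, and HHT1 did not between Rho0 and WT light cells.

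Differences between histone genes on the same array do not move with a constant shift of that array, so they show unequal change. Each was tested with an exact two-sided permutation test, adjusted over 15 tests, and 0.00794 was the smallest p that 5 against 5 arrays allow. HHT1 minus HHT2 averaged -1.97 ± 0.16 log2 in Rho0 low density, -0.46 ± 0.14 in WT low density and -0.44 ± 0.18 in WT high density. The H3 genes thus changed unequally between Rho0 and WT light cells (-1.51 ± 0.09, difference ± SE; exact permutation p = 0.00794, adjusted p = 0.0119). Between light and dense WT cells no unequal change was detectable (-0.02 ± 0.10; exact p = 0.857).

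HTB1 minus HTB2 averaged 1.92 ± 0.12 log2 in Rho0 low density, 0.07 ± 0.39 in WT low density and 1.16 ± 0.28 in WT high density. The H2B genes changed unequally in all 3 comparisons, by -1.09 ± 0.21 for WT low against WT high density, 1.85 ± 0.18 for Rho0 low against WT low density and 0.76 ± 0.14 for Rho0 low against WT high density (adjusted p = 0.0119 each, exact permutation tests). HTZ1 minus the mean of HTA1 and HTA2 (s_at) was -4.04 ± 0.09, -4.66 ± 0.19 and -5.63 ± 0.16 in Rho0 low, WT low and WT high density. H2A.Z mRNA thus rose relative to H2A in both light groups against the dense one, by 1.59 ± 0.08 for Rho0 low density and 0.97 ± 0.11 for WT low density (exact permutation, adjusted p = 0.0119 each). With the own probe set of HTA2 in place of the s_at set, its difference between Rho0 low and WT low density was -0.47, against 0.63 with the s_at set. Between Rho0 low and WT high density it was 0.40 with the own probe set (exact permutation, adjusted p = 0.0298), against 1.59. HHO1 minus the mean of the core genes was lower in Rho0 low than in WT high density (-0.83 ± 0.22; exact permutation, adjusted p = 0.0119). For WT low against WT high density it gave -0.53 ± 0.27 (exact permutation, adjusted p = 0.0893), and passed without WT high density replicate 4 (adjusted p = 0.0397) or WT low density replicate 1 (adjusted p = 0.0433). For Rho0 low against WT low density it gave -0.30 ± 0.16 (exact permutation, adjusted p = 0.101). That difference passed with quantile normalization (-0.57; adjusted p = 0.0119) and with the own probe set of HTA2 among the core genes (-0.61; adjusted p = 0.0108).

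**Figure D3:**
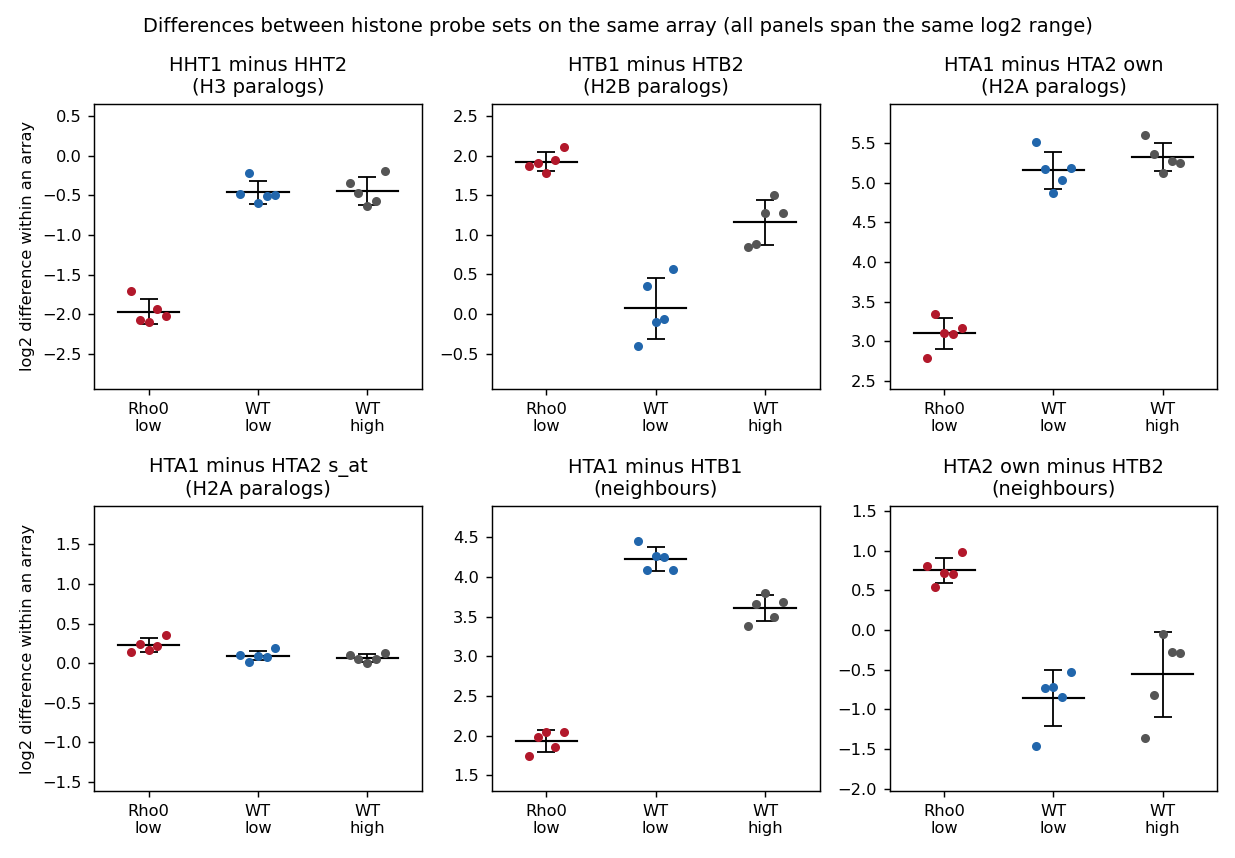
Log2 difference between 2 histone probe sets on the same array (points), with group mean and SD (bars), in Rho0 low density, WT low density and WT high density (5 arrays each). HHT1 minus HHT2 lies near -2 in Rho0 low density and near -0.45 in the WT groups. HTA1 minus the s_at set of HTA2 stays between 0.00 and 0.36 on all 15 arrays, while HTA1 minus the own probe set of HTA2 is about 2 log2 lower in Rho0 low density than in WT.

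The reading of HTA2 therefore turned on its probe set. HTA1 minus the s_at set of HTA2 lay between 0.00 and 0.36 log2 on all 15 arrays, so these sets followed each other closely through all groups. Its change of 0.13 log2 between Rho0 and WT light cells passed (exact permutation, adjusted p = 0.0325), but the call was lost without any single one of 7 of the 10 arrays (adjusted p from 0.0595 to 0.0649). It held without Rho0 low density replicate 1 or 3 or WT low density replicate 5. Between Rho0 low and WT high density the change was 0.155 log2 (exact permutation, adjusted p = 0.0119), and that call held with any single array left out. HTA1 minus the own probe set of HTA2 averaged 3.10 ± 0.20 in Rho0 low density, 5.16 ± 0.24 in WT low density and 5.32 ± 0.18 in WT high density. With that set the H2A genes changed unequally between Rho0 and each WT group, by -2.06 ± 0.14 and -2.22 ± 0.12 (exact permutation, adjusted p = 0.0132 over 15 further tests, all chosen after the values were seen).

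The same further tests set divergent neighbours side by side. HTA1 and HTB1 lie next to each other, as do HTA2 and HTB2, and HHT1 and HHF1. HTA1 minus HTB1 averaged 1.93 ± 0.13 log2 in Rho0 low density, 4.23 ± 0.15 in WT low density and 3.60 ± 0.16 in WT high density. Genes of that couple therefore changed unequally in all 3 comparisons (0.62 ± 0.10 for WT low against WT high density, -2.30 ± 0.09 and -1.67 ± 0.09 for Rho0 low density against WT low and WT high density; exact permutation, adjusted p = 0.0132 each). The own probe set of HTA2 minus HTB2 averaged 0.75 ± 0.16 in Rho0 low density, -0.86 ± 0.36 in WT low density and -0.56 ± 0.53 in WT high density. This couple changed unequally between Rho0 and WT light cells (1.61 ± 0.17; exact permutation, adjusted p = 0.0132), in the opposite direction to HTA1 and HTB1. HHT1 minus HHF1 changed by -0.37 ± 0.08 between these groups (exact permutation, adjusted p = 0.0238), with overlapping values, and gave adjusted p = 0.452 between light and dense WT cells by the same exact test. The HHF1 set may include HHF2, the neighbour of HHT2, so that difference cannot be assigned to the HHT1 and HHF1 couple.

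As a description, other genes were ranked by how closely their log2 profile over the 15 arrays followed the mean profile of the 5 core genes whose single probe set lacks the s_at suffix (HHT1, HHT2, HTA1, HTB1 and HTB2), each profile centred on its own mean. That mean profile was 10.09 ± 0.06 in Rho0 low density, 9.93 ± 0.04 in WT low density and 9.20 ± 0.08 in WT high density. The 5 nearest genes were GLK1 (root mean square difference 0.098 log2), for glucokinase, GLE2 (0.108), for a nuclear pore protein, CAM1 (0.112), HXT7 (0.12), for a hexose transporter, and CPR3 (0.123), for a mitochondrial cyclophilin. The histone genes were themselves farther from it, although 5 of them make it up. HHF1 ranked 103rd of the 5449 genes at 0.228 log2, HTB2, HTZ1 and HHT1 ranked 232nd to 301st, and HTA1, HTB1, HHT2 and HTA2 ranked 2110th or lower.

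Genes that act on histones were counted from 7 lists, beside the same background shares. Regulators of histone gene transcription were the HIR complex, Asf1, Rtt106, Yta7, Spt10, Spt21 and the SBF and MBF subunits. Of 12 regulators 1 rose and 9 fell in WT low against WT high density (26.2% and 41.1% of all genes), with a median of -0.57 log2, against 2 and 5 after quantile normalization and 0 and 10 after spike-in scaling. YTA7, for a chromatin boundary ATPase, had the largest fall, averaging 2.61 ± 0.25 in WT low density, just above the background level, and 4.36 ± 0.36 in WT high density (3.36-fold; adjusted p = 2.07e-08). Between Rho0 and WT light cells 6 rose and 2 fell, where 44.6% of all genes rose and 22.7% fell. The 12 split into 2 and 3 after quantile normalization, 3 and 3 with S. cerevisiae medians made equal, 7 and 1 with a common S. pombe median and 10 and 0 after spike-in scaling. HIR3 was at least 1.78-fold higher there, since WT low density averaged under the background level. SPT10 and SPT21, for activators of histone genes, were the 2 that fell without rescaling (-0.38 and -0.40 log2). Against WT high density, Rho0 low density had 1 higher (HIR2, 2.69-fold) and 6 lower, where 37.9% of all genes rose and 34.4% fell. The split of the 12 was 2 and 3 after spike-in scaling and 2 and 6 after quantile normalization.

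Among 15 histone chaperone and import genes, 2 rose and 8 fell in WT low against WT high density (26.2% and 41.1% of all genes). The importin gene KAP123 had the largest change (3.76-fold lower). The split was 3 and 6 with S. cerevisiae medians made equal and 1 and 10 after spike-in scaling. In Rho0 low against WT low density 8 rose and 0 fell, where 44.6% of all genes rose and 22.7% fell. Counts of the 15 were 7 and 2 with equal medians and 14 and 0 after spike-in scaling, where 3955 of all 5449 genes rose. SPT16, for a subunit of the FACT chaperone, led the rise. SPT16 averaged 8.56 ± 0.10 in Rho0 low density and 6.86 ± 0.21 in WT low density, a 3.26-fold rise (adjusted p = 4.33e-09). Rho0 low against WT high density gave 5 higher and 6 lower (37.9% and 34.4% of all genes), which spike-in scaling turned to 9 and 2. SPT16 again had the largest change, 4.06-fold higher.

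The SWR1 complex exchanges H2A for H2A.Z. Of its 13 genes, 2 rose and 7 fell in WT low against WT high density, and 1 rose and 8 fell after spike-in scaling. HTZ1 itself rose there, and of all genes 26.2% rose and 41.1% fell without rescaling. SWR1, for its ATPase, was at -0.02 log2 there, and SWC5, for a subunit, was 1.85-fold lower. Between Rho0 and WT light cells 6 of the 13 rose and SWC5 alone fell, where 44.6% of all genes rose and 22.7% fell. BDF1, for a bromodomain subunit, was at 2.02-fold. The split of the 13 was 4 and 2 after quantile normalization or with equal S. cerevisiae medians. It was 12 and 0 after spike-in scaling, where 3955 of all 5449 genes rose. Against WT high density 4 rose and 2 fell in Rho0 low density (37.9% and 34.4% of all genes). SWC5 had the largest change there, 3.41-fold lower. The split turned to 3 and 6 with equal medians and was even at 3 and 3 after quantile normalization. It was 4 and 1 with a common S. pombe median and 5 and 1 after spike-in scaling.

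Of 6 genes for acetylation of new histones, 2 rose and 2 fell in WT low against WT high density (26.2% and 41.1% of all genes). Quantile normalization gave 3 and 1. HST4, for a deacetylase, fell 4.13-fold. In Rho0 low against WT low density 4 rose and 0 fell, where 44.6% of all genes rose and 22.7% fell. Spike-in scaling gave 6 and 0, where 3955 of all 5449 genes rose. RTT109, for an H3 acetyltransferase, led the rise at 3.20-fold. Rho0 low against WT high density gave 3 and 2 (37.9% and 34.4% of all genes), or 4 and 1 after spike-in scaling. HAT2, for a subunit of an H4 acetyltransferase, had the largest change there, 5.54-fold higher. CSE4, for the centromeric H3 variant, rose in WT low against WT high density (0.64 log2), while its chaperone gene SCM3 (-0.67) and the ubiquitin ligase gene PSH1 (-0.87) fell, and after spike-in scaling 0 of the 3 rose and 2 fell. None of these 3 was called between Rho0 and WT light cells, although 1 was lower after quantile normalization or with equal medians and 2 were higher after spike-in scaling. Rho0 low against WT high density had 1 higher and 2 lower, or 1 and 1 after spike-in scaling. PSH1 had the largest change of the 3 there, 2.18-fold lower.

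Of 7 genes for histone mRNA turnover and removal of excess histones, 0 rose and 6 fell in WT low against WT high density (26.2% and 41.1% of all genes). Quantile normalization gave 1 and 4. RAD53, for a checkpoint kinase that targets excess histones for breakdown, fell 2.41-fold, averaging 2.90 in WT low density, near the background level. The ubiquitin ligase gene TOM1 led the 2 genes that rose in Rho0 low against WT low density (2.41-fold), with 0 lower. Of all genes 44.6% rose and 22.7% fell there. The split of the 7 was 2 and 2 after quantile normalization or with equal medians and 3 and 0 with a common S. pombe median. It was 6 and 0 after spike-in scaling, where 3955 of all 5449 genes rose. Against WT high density 1 rose and 3 fell in Rho0 low density (37.9% and 34.4% of all genes). The split was 0 and 5 with equal medians, and spike-in scaling turned it to 2 and 1. RAD53 had the largest change, 2.67-fold lower, averaging 2.75 in Rho0 low density, near the background level.

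S phase genes are expressed near the time of the histone genes in cycling cells. Of 14, 1 rose and 9 fell in WT low against WT high density (26.2% and 41.1% of all genes). The split was 2 and 7 after quantile normalization and 0 and 10 after spike-in scaling. MCD1, for a cohesin subunit, was 3.89-fold lower there, averaging 4.86 ± 0.12 in WT low density and 6.82 ± 0.13 in WT high density. In Rho0 low against WT low density 6 of the 14 rose and 1 fell, where 44.6% of all genes rose and 22.7% fell. The cyclin gene CLB5 led the rise at 4.08-fold. Counts of the 14 were 3 and 3 after quantile normalization and 5 and 2 with equal medians. They were 12 and 0 after spike-in scaling, where 3955 of all 5449 genes rose. Against WT high density 4 rose and 7 fell in Rho0 low density (37.9% and 34.4% of all genes). MCD1 had the largest change there, 7.39-fold lower. Spike-in scaling turned the split to 6 and 3.

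**Figure D4:**
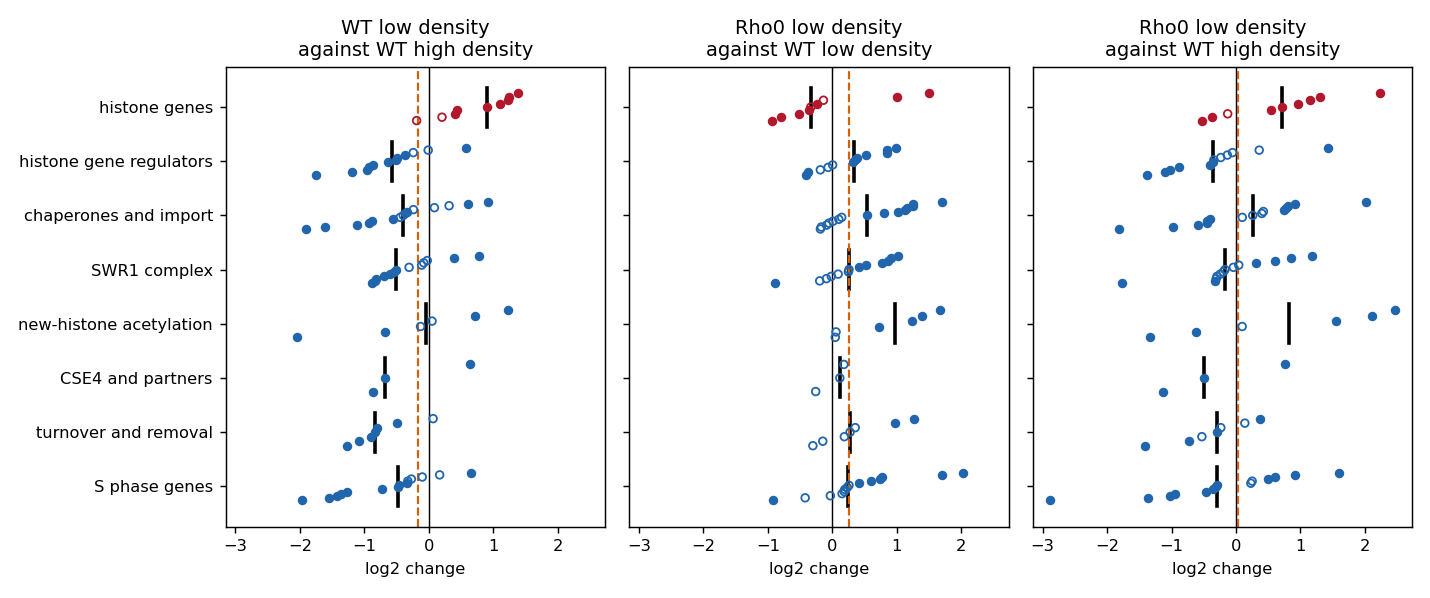
Log2 change of the 9 histone genes and of the genes in 7 related lists in the 3 comparisons. Each point is a gene, filled where it passed an adjusted p of 0.05 in limma. Black bars are list medians and the dashed line is the median of all genes. In WT low against WT high density the histone median is 0.90, while those of regulators and S phase genes are -0.57 and -0.47.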

How the data were processed

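The authors deposited log2 signals of 10928 probe sets on 15 arrays; the submitters' processing notes name RMA and Affymetrix Expression Console. Labelling started from 100 ng of RNA, per the labels' protocols, which give no genome build. Probe sets were named with the given platform annotation. Entrez numbers of 5498 probe sets matched an S. cerevisiae reference table (assembly R64, used for names and neighbouring genes), and 1746 others were taken as S. pombe. The probe set with the highest mean stood for each of 5449 genes.

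Groups were fitted in limma 3.58.1 (R 4.3.3; lmFit, eBayes, 12 residual degrees of freedom), two-sided, with Benjamini-Hochberg adjustment over all genes. Differences within arrays used exact permutation tests in scipy 1.17.1. The limma fit was tested on simulated data, and the permutation tests were not. Named genes are all 10 members, the called gene with the largest change in each list and comparison, and the 5 genes nearest in profile. Genes of related lists named beyond that (SPT10, SPT21, SWR1, CSE4 and SCM3) and the own probe set of HTA2 were chosen after their values were seen. Members and lists were chosen with earlier results of these data known. Where the lower mean was under background, the fold is against the background level. Same-numbered arrays did not deviate together in every pair, so the main fit has no block. The p-values measure the spread between the labelled biological replicates.

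Alternatives were treat against 1.5-fold, a fit of the 10 arrays compared, array weights, robust eBayes with a trend, a replicate block, quantile normalization over S. cerevisiae genes, 3 array scalings, a filter on background, averaged probe sets and each array left out. Added after the data were seen were HTA2 by its own probe set and counts without the s_at sets.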

Additional observations from a re-analysis of the deposited data

Results flagged for a closer look

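In WT high density, replicate 1 stood apart from the other 4 arrays in both HTA2 probe sets. The s_at set read 12.13 there against 12.47 to 12.56 on the others, with a gap of 0.781 of the group's whole range. The own probe set read 6.64 against 7.25 to 7.40, with a gap of 0.802. Both gaps exceed Dixon's 95% value of 0.71 for 5 samples. Of 30 groups of values examined 2 were flagged, and chance flags about 1 in 20. The same array also read lowest of its group for HTA1 (12.24 against 12.48 to 12.65) and HHF1 (9.66 against 10.13 to 10.41), which were not flagged. The own probe set was not fitted without that array. Without that array the s_at set changed by 0.33 log2 in WT low against WT high density and by -0.60 in Rho0 low against WT high density, and both calls held.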

How the results depend on the processing

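The count of histone genes called higher stayed within 1.5 times of the main count except with treat in WT low against WT high density (4). The count called lower there became 1 (HTB1) at a common S. pombe median. In Rho0 low against WT low density the 5 called lower became 3 at a common S. pombe median, 6 with quantile normalization, 7 at a common S. cerevisiae median, 0 scaled to the poly-A spike-in RNAs, 1 with treat and 3 to 5 with an array left out. In Rho0 low against WT high density the 2 called lower became 1 with quantile normalization, with the mean of probe sets, with HTA2 by its own set and without the s_at sets, and 0 with poly-A scaling and with treat. The cause was not tested. By design, treat asks for a larger change, HTA2 by its own set replaces a gene's values and leaving out the s_at sets drops genes.

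Changes of sign with poly-A scaling were HHO1 at -0.024 in WT low against WT high density, HHT1 0.17, HHF1 0.54, HTB2 0.33, HTZ1 0.44 and HHO1 0.35 in Rho0 low against WT low density, and HTA1 0.085 and HHO1 0.32 in Rho0 low against WT high density. HHO1 ran from -0.286 to 0.00478 in the last comparison with an array left out, above 0 without WT high density replicate 2. HTA2 became 0.16 and 0.67 with the mean of its sets, and 1.25 and 1.86 with its own set, against WT low and WT high density. HTA1 minus HTA2 became -0.069, -0.97 and -1.03 with the mean of sets and -0.16, -2.06 and -2.22 with the own set in the 3 comparisons, and HTZ1 minus H2A with the own set became -0.47 and 0.40 against WT low and WT high density. HHT1 minus HHT2 ran from -0.077 to 0.048 in WT low against WT high density, above 0 without WT high density replicate 1 or 5 or WT low density replicate 3.

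Unequal changes numbered 2, 4 and 5, and 2 to 3, 3 to 4 and 5 with an array left out. HHT2 and HTB1 in Rho0 low against WT low density kept their calls in all 21 alternatives, from 0.73 to 1.68 and from 1.23 to 2.18 log2. With the replicate block 4 genes were called lower in that comparison, HTZ1 being lost, and no other count of histone genes changed. With that block the counts of related lists moved by at most 2 genes. Other settings moved them further. After spike-in scaling the SWR1 genes called higher in Rho0 low against WT low density went from 6 to 12, as did the S phase genes. With an array left out, S phase genes called lower in Rho0 low against WT high density ran from 4 to 7. Same-numbered arrays correlated from -0.05 to 0.37, and 3, 2 and 1 of 5 correlated best with their own number.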
